A study of Mus musculus with 19 samples.

Results

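Tumors and tumor-free mammary glands of *NP* mice were compared, that is, of mice with mutant p53 in their fibroblasts. The 4 tumors (TNP) and 4 glands (MGNP) are 8 of the 19 RNA-seq samples of the series and were chosen by their group labels alone. All 8 carried the genotype MMTV-neu;p53wm-R172H/+;Fsp-Cre. The neu transgene, the conditional p53 allele and Cre were therefore shared by tumors and glands. The comparison is between tissues of the same genotype. The study reports, however, that the share of R172H reads of p53 differed between these glands and these tumors. Tissue and that share cannot be told apart here. The MMTV promoter drives neu, the rat gene for the receptor ERBB2 (HER2), in mammary epithelium. Fsp-Cre expresses Cre from the promoter of *S100a4* in fibroblasts, where the conditional allele turns from wild type to R172H. The glands were taken from tumor-bearing mice and held no malignant lesion, all mice were of mixed FVB/C57/BALB/c background, and their ages are not in the labels used here. The same difference in *N* mice, without mutant p53 in fibroblasts, served for comparison. Its 4 tumors (TN) were MMTV-neu;Fsp-Cre, and of its 4 glands (MGN) 1 was MMTV-neu;Fsp-Cre and 3 were MMTV-neu;p53wm-R172H/+, which has no Cre. The 3 Wild Type glands of the series enter only an alternative fit over all 5 groups.

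ERBB2 is a receptor tyrosine kinase that signals in dimers with the other ERBB receptors, toward growth pathways that include PI3K/AKT and MAPK. A mouse mammary gland is a tree of ducts with inner luminal and outer contractile basal cells, set in a fat pad with fibroblasts, vessels, nerves and immune cells, close to skin and body-wall muscle. Neu tumors arise from its epithelium. Bulk RNA pools all these cells. A lower level of a cell type's genes can come from fewer such cells or from less RNA in each, and these cannot be told apart here.

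Values are normalized counts, the reads on a gene divided by a size factor of the library, and are given in the order of replicates 1 to 4 of each group. A difference is tumors minus glands of the mean log2(normalized count + 1), tested with limma (n = 4 a group). Genes called higher or lower had a Benjamini-Hochberg adjusted p under 0.05 over all 17880 genes tested and at least a 2-fold change, and only these are said to have risen or fallen. Where the groups of a gene do not overlap, the two-sided exact permutation test gives p = 0.0286, the smallest that 4 against 4 samples allow. By this rule 14.7% of the genes tested were called higher in tumors and 24% lower, 38.7% in either direction, and tumors and glands lay fully apart for 52.6%. These shares are the background for every list below. The median difference of all genes tested was -0.07. Genes were read in 58 lists of cell type markers and pathways.

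The recovered reads ran from 20972633 to 23234914 in tumors and from 21467242 to 26888814 in glands. Tumors were more alike (Pearson r of log2 values 0.957 to 0.978) than glands (0.885 to 0.966). A list of 24 skeletal muscle genes took 3.68, 19.9, 0.135 and 11.5% of the reads of glands 1 to 4, against 0.00278 to 0.0469% in tumors. Lymphocyte genes were high in glands 1 and 3, and the brown fat gene *Ucp1* stood at 56926 in gland 4, against 2.85 to 1967 in the others. Each list was therefore also counted with a muscle score as covariate, without glands 2 and 4, and against gland 3 alone. The score, the mean log2 value of the 24 muscle genes, ran from 3.43 to 7.78 in tumors and from 8.42 to 16.1 in glands. The first of these settings therefore takes up part of the tissue difference, and the last assumes that 1 gland varies like the other samples. Under these settings 1668, 2446 and 2007 genes were called higher and 2707, 4018 and 2739 lower. Brackets after a list's count give every such alternative, and every left-out library, that moved the count more than 1.5 times or gave a call where there was none, except the fits with no fold threshold and with replicate number as a block. Sentences after the values name the genes whose calls were lost.

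Cell type markers differed widely between gland and tumor. Luminal epithelial markers rose and basal, adipocyte, fibroblast, lymphocyte and vessel markers fell, as the plot of the marker lists shows. Of 13 luminal genes tested, 11 rose (6 with the muscle covariate), with a list median of 2.64. *Epcam*, which encodes an adhesion protein of epithelial cells, had counts of 36259, 39945, 26506 and 33425 in the tumors and 3684, 4059.5, 3612 and 1458 in the glands, without overlap (log2 difference 3.497 ± 0.32 (SE), adjusted p = 6.27e-05). *Cldn3*, which encodes a tight junction protein, stood at 6352, 7016, 8058 and 9063 in the tumors and 773, 768, 1393 and 253 in the glands (3.48 ± 0.44). *Spdef*, the gene of a transcription factor of secretory luminal cells, had the largest rise of the list, with 797 to 1979 in the tumors and 24.8 to 103 in the glands (4.70 ± 0.51). The keratins of the same cell layer did not move together. *Krt8* (2.64 ± 0.38) and *Krt18* (3.03 ± 0.32) rose, while *Krt19* was 74.0, 194, 1512 and 72.4 in the tumors and 3316, 5624, 3868 and 1528 in the glands, lower in tumors by 4.01 on the log2 scale and not overlapping. The call of *Krt19* was lost with the muscle covariate or against gland 3 alone.

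**Figure D1:**
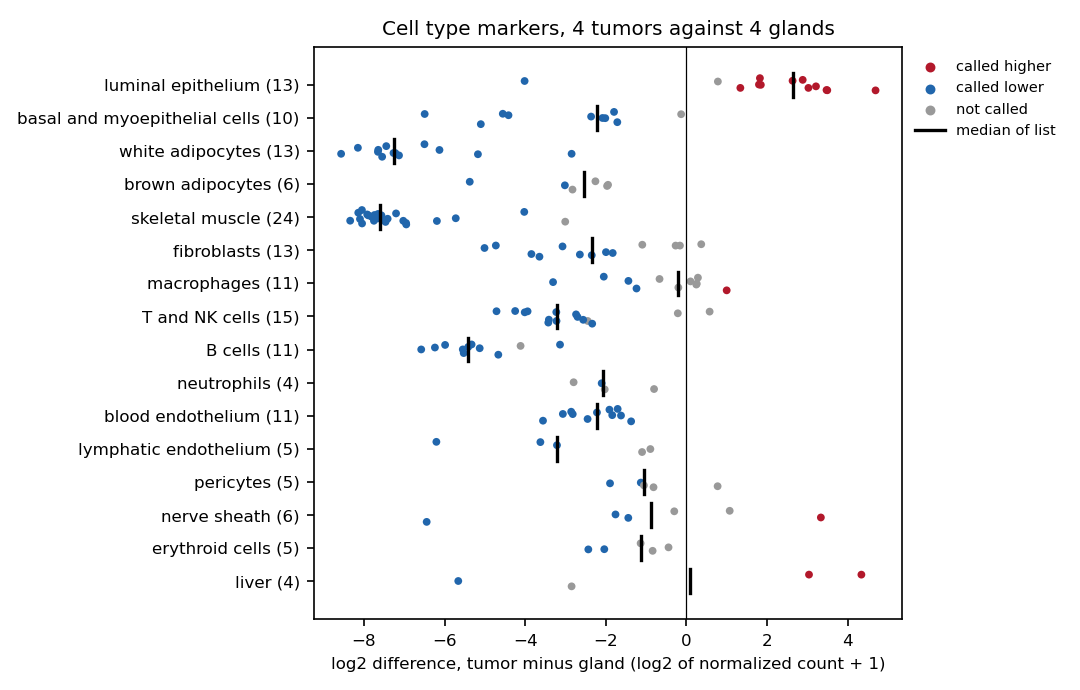
Differences in log2(normalized count + 1), tumors minus glands of NP mice, for the tested genes of 16 marker lists (points, colored by call, black bars at list medians, list sizes in brackets). Luminal genes sit mostly above 0 with a median of 2.64, while adipocyte, muscle and B cell genes sit far below 0.

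Basal cell genes moved the other way. Of 10 basal and myoepithelial genes 9 fell and 0 rose (median -2.22). *Krt5*, a keratin of the basal layer, had 10.1, 15.9, 19.5 and 4.99 in the tumors and 1511, 1133, 1438 and 611 in the glands (log2 difference -6.49 ± 0.45 (SE), adjusted p = 1.9e-05). Every tumor was below every gland. Its partner *Krt14* (-4.55 ± 0.42) and the smooth muscle contractile genes *Acta2* (-1.79 ± 0.29), *Cnn1* (-5.10 ± 0.35) and *Myh11* (-4.41 ± 0.34) fell too. The luminal list took 0.468 to 0.603% of tumor reads and the basal list 0.0118 to 0.0193%. In glands they took 0.111, 0.0898, 0.14 and 0.0295% and 0.113, 0.0624, 0.117 and 0.0364%. The luminal share was far above the basal share in every tumor, while the shares lay close in every gland.

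White fat genes were at their lowest in the tumors throughout. All 13 white adipocyte genes tested fell, with a median of -7.27. *Adipoq*, the gene of the adipocyte hormone adiponectin, read 72.9, 194, 184 and 63.7 in the tumors and 14468, 23459, 21051 and 38749 in the glands (log2 difference -7.64 ± 0.44 (SE), adjusted p = 8.84e-06). *Plin1*, which encodes a coat protein of the fat droplet, was at 31.2 to 92.7 in the tumors and 6422 to 18105 in the glands (-7.65 ± 0.42). *Lep*, the leptin gene, was at 20.2, 45.1, 31.2 and 8.74 in the tumors and 1377, 9355, 6783 and 3236 in the glands (-7.45 ± 0.66), and *Adrb3*, the gene of the fat cell's beta-adrenergic receptor, at 2.44 to 19.5 in the tumors and 1380.1 to 4970.2 in the glands. White adipocyte genes took 0.918, 0.812, 1.3 and 1.63% of gland reads, whose order did not follow that of muscle, and 0.0147 to 0.0215% of tumor reads. Brown fat markers varied among glands far more, and 2 of 6 fell (1 with tumors 1 and 2 averaged, with the muscle covariate or without tumor 1, tumor 2 or tumor 3; 4 with DESeq2, with all 5 groups in the fit or without gland 2; 5 with edgeR), among them *Cox8b*, a respiratory chain subunit of brown fat and muscle, with 28.7 to 72.0 in the tumors and 545 to 8396 in the glands (-5.37 ± 0.76).

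**Figure D2:**
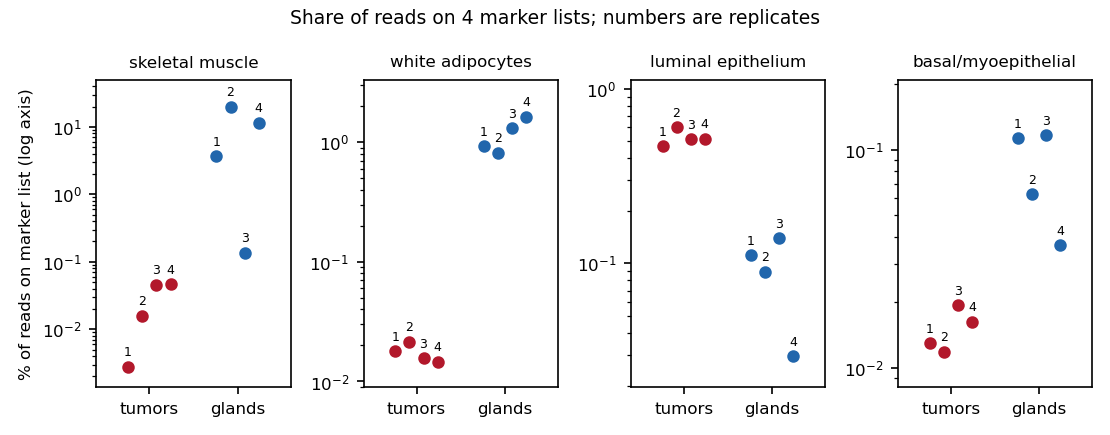
Percent of each library's reads on 4 marker lists (log axes), by replicate of the NP tumors and glands. Muscle genes range from 0.135 to 19.9% among glands, while white adipocyte genes stay between 0.812 and 1.63%, and the tumors form a tight group in the luminal panel.

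Skeletal muscle genes, which mammary epithelium does not use, were highest in glands 2 and 4. The muscle covariate was made from these same genes, so the loss of their calls with it was fixed in advance. Of the list 23 of 24 fell (0 against gland 3 alone; 1 with the muscle covariate), with *Myh4*, a fast-fiber myosin, at 16.8, 469.7, 1805 and 1845 in the tumors and 136499.9, 1032705, 4721 and 465029.6 in the glands. *Ckm*, the muscle creatine kinase gene, was at 21.3, 146, 673 and 747 in the tumors and 36447, 261243, 1175 and 143794 in the glands. Gland 3 lay close to the tumors for *Ckm*, and against gland 3 alone no muscle gene was called lower and 1 was called higher. Every tumor was below every gland for both genes.

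Stromal and vessel genes fell broadly. 9 of 13 fibroblast genes fell and 0 rose (median -2.35). *Dcn*, which encodes the collagen-binding proteoglycan decorin, had 507, 876, 626 and 516 in the tumors and 19041, 22469, 13724 and 26331 in the glands (log2 difference -5.01 ± 0.24 (SE), adjusted p = 6.08e-06). *Lum* (-3.84 ± 0.20), which encodes the related lumican, *Dpt* (-4.73 ± 0.26), the gene of dermatopontin, and *Pdgfra* (-3.07 ± 0.37), which encodes a growth factor receptor of fibroblasts, fell with it. The collagen gene *Col1a1*, by contrast, was at 6361, 7967, 15268 and 10219 in the tumors and 5187, 6001, 18480.3 and 4926 in the glands with overlap of the groups (adjusted p = 0.505). *S100a4*, whose promoter drives Cre here, was too low to test, at 2.24 to 8.74 in tumors and 8.56 to 53.4 in glands. All 11 blood endothelial genes tested fell (7 with the muscle covariate). *Pecam1*, the adhesion molecule CD31, had 1025, 1028, 1438 and 980.1 in the tumors and 7149.5, 4686, 4786 and 4349 in the glands (-2.22 ± 0.19), and *Tek*, the angiopoietin receptor gene, had the largest fall of the list (-3.56 ± 0.28). 3 of 5 lymphatic genes fell (5 without glands 2 and 4 or without gland 2), among them *Lyve1*, a hyaluronan receptor gene (-3.21 ± 0.36), and *Ccl21a*, the gene of a chemokine that guides lymphocytes and dendritic cells (-6.20 ± 1.78). Of the pericyte list 2 of 5 fell (1 with the muscle covariate, without glands 2 and 4 or against gland 3 alone), led by *Cspg4* (-1.89 ± 0.27), which encodes the proteoglycan NG2, and none rose (1 without tumor 3).

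Immune markers did not fall evenly. 10 of 11 B cell genes fell (median -5.41), but tumors and glands lay fully apart for only 5 of the 11, beside 52.6% of all genes tested. The mean log2 value of the list was 5.78 in tumor 2 and 5.73 in gland 2. *Jchain*, which links secreted antibodies, had 43.7, 248, 81.8 and 78.7 in the tumors and 17487, 4612, 4817 and 3045 in the glands (log2 difference -5.99 ± 0.63 (SE), adjusted p = 0.000116), without overlap. 12 of 15 T and NK cell genes fell (7 without tumor 1, gland 1 or gland 3). *Cd3e*, a subunit gene of the T cell receptor complex, had 2.24, 19.5, 15.6 and 8.74 in the tumors and 510.3, 51.4, 488 and 54.2 in the glands (-4.01 ± 0.94). In the macrophage list 4 of 11 fell and 1, *Fcgr1*, an antibody receptor gene, rose (0 with a pseudocount of 5, with edgeR, with DESeq2, with tumors 1 and 2 averaged, with the muscle covariate, without glands 2 and 4, against gland 3 alone or without tumor 1, tumor 2, tumor 3, tumor 4, gland 2, gland 3 or gland 4). Those that fell include *Cd163* (-3.31 ± 0.21) and *Mrc1* (-2.05 ± 0.16), which encode scavenger and mannose receptors of tissue-resident macrophages. *Adgre1*, the gene of the general macrophage antigen F4/80, was at 770.2, 836, 1049 and 1146 in the tumors and 1005, 796, 1729.7 and 967 in the glands and overlapped. The MHC class II list had 1 of 7 lower (0 with tumors 1 and 2 averaged or without tumor 1, tumor 2, tumor 3, tumor 4, gland 1 or gland 3; 2 with all 5 groups in the fit; 3 with DESeq2 or against gland 3 alone; 4 without gland 2; 6 without glands 2 and 4), the transactivator gene *Ciita*. Of 4 neutrophil genes tested 1 fell (2 with all 5 groups in the fit, without glands 2 and 4 or without gland 1 or gland 2; 3 with edgeR), the chemokine receptor gene *Cxcr2* (-2.10 ± 0.58). The erythroid list had 2 of 5 lower (0 against gland 3 alone; 4 without tumor 1), both globin genes with near-identical copies.

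Nerve sheath genes moved in both directions, with 1 of 6 higher (0 with the muscle covariate; 2 without gland 4) and 3 lower. *Prx*, which encodes the myelin protein periaxin, fell (log2 difference -1.44 ± 0.28 (SE), adjusted p = 0.00276). *Sox10*, a transcription factor gene of Schwann cells that some mammary epithelial cells also use, rose, with 6393, 6219, 6962 and 8479 in the tumors and 949, 601, 1566 and 249 in the glands (3.34 ± 0.48). In the liver list, read as a check, the transferrin gene *Trf*, which mammary epithelium also expresses, rose, with 33164 to 49018 in the tumors and 1502 to 2374 in the glands (4.34 ± 0.19), while the albumin gene *Alb* fell (-5.66 ± 0.60). *Sox10* did not keep its call with the muscle covariate.

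Receptors of the oncogene's own family were mostly higher in tumors. 3 of the 4 ErbB receptor genes rose and none fell. *Erbb2* (ENSMUSG00000062312, chromosome 11, 98412470 to 98437716 of GRCm38) had 115481, 117599.5, 108664 and 84389.7 in the tumors and 9969, 10787, 3985 and 3966 in the glands (log2 difference 4.04 ± 0.37 (SE), adjusted p = 5.95e-05). Reads of the rat transgene and of the mouse gene cannot be told apart in this table. *Erbb3*, whose product has little kinase activity of its own and is the main partner of ERBB2, had 12541, 14184, 10878 and 12358 in the tumors and 2229, 2586, 3066 and 1136 in the glands (2.55 ± 0.28). *Erbb4*, which encodes a neuregulin receptor tied to differentiation and lactation, had 1808, 2059, 2252 and 1366 in the tumors and 399, 284, 421 and 484 in the glands (2.24 ± 0.21). *Egfr* was at 2428, 2789, 5703 and 5766 in the tumors and 4772, 5413, 4598 and 4283 in the glands, overlapping (adjusted p = 0.417). Per kilobase of exon the mean level in tumors was 20448 for *Erbb2*, 2076 for *Erbb3*, 368 for *Egfr* and 151 for *Erbb4*. In glands these levels were 1377, 375, 421 and 32.1. On this scale *Egfr* stood above *Erbb3* in glands and below it in tumors.

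Of the ligands, 4 of 9 rose (2 with the muscle covariate) and 1 fell (2 with DESeq2 or without gland 4). *Tgfa*, the gene of an EGFR ligand, had 1635, 811, 613 and 960.1 in the tumors and 209, 136, 177 and 108 in the glands (log2 difference 2.61 ± 0.33 (SE), adjusted p = 0.000268). The neuregulin genes went opposite ways. *Nrg2* rose (4.41 ± 0.46), with 1179, 1433, 892 and 1104 in the tumors and 62.9, 54.2, 112 and 19.4 in the glands, and *Nrg4* fell (-5.56 ± 0.34), with 30.3, 25.6, 29.9 and 19.98 in the tumors and 1159.8, 861, 1038 and 2546 in the glands. *Nrg4* encodes a ligand of ERBB4, and *Nrg2* one of ERBB3 and ERBB4. *Epgn* (2.16 ± 0.67) and *Hbegf* (1.45 ± 0.39), which encode further EGFR ligands, rose. The call of *Hbegf* was lost with the muscle covariate. *Epgn* did not keep its call with the muscle covariate or without tumor 4.

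Hormone receptors and luminal transcription factors did not move as a group, with 3 of 13 higher (1 with the muscle covariate) and 6 lower. Hormone-sensing genes were among those that fell. *Esr1*, the estrogen receptor gene, had 178, 107, 174 and 428 in the tumors and 1808, 3481, 1962 and 3444 in the glands (log2 difference -3.71 ± 0.42 (SE), adjusted p = 0.000159). *Tnfsf11* (-4.35 ± 1.05), which encodes RANKL, a signal from hormone-sensing to neighboring cells, fell too, as did *Cited1* (-4.07 ± 0.54), a coactivator gene of the estrogen receptor. *Foxa1*, the gene of the factor that opens chromatin for the estrogen receptor, had 2.24, 2.44, 121 and 6.24 in the tumors and 256, 394, 145 and 142 in the glands (-4.43 ± 1.09). *Elf5*, a transcription factor gene of milk-secreting alveolar cells, rose instead, with 7310.0, 7530.4, 5892 and 5663 in the tumors and 2696, 1462, 2778 and 648 in the glands (2.00 ± 0.43), as did *Ehf* (2.89 ± 0.46), which encodes a related epithelial ETS factor. *Tfap2c*, which encodes the factor AP-2 gamma, rose (3.53 ± 0.35). *Elf5* and *Ehf* did not keep their calls with the muscle covariate. The call of *Foxa1* was lost with edgeR, with the muscle covariate or against gland 3 alone.

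Milk protein genes rose in part. 4 of 10 were called higher (2 with the muscle covariate) and none lower (1 with DESeq2 or without gland 4; 2 without glands 2 and 4 or against gland 3 alone; 3 with the muscle covariate). *Lalba*, the gene of alpha-lactalbumin, the cofactor of lactose synthesis, had 23725, 15935, 19049 and 11386 in the tumors and 236, 711, 464 and 31.0 in the glands (log2 difference 6.24 ± 0.85 (SE), adjusted p = 0.000415). *Csn3*, the kappa-casein gene, had 316736, 248136, 189947 and 264126 in the tumors and 6357, 6111, 9399 and 1608 in the glands (5.67 ± 0.50). Neither gene overlapped between the tissues. *Csn1s1*, an alpha-casein gene, rose as well (3.22 ± 0.78). The call of *Csn1s1* was lost with all 5 groups in the fit, with the muscle covariate or against gland 3 alone.

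Genes of cell division rose together against the 4 glands, and 21 of 27 mitosis genes were called higher without the muscle-rich glands 2 and 4. No mitosis gene was called with the muscle score as covariate, which takes up part of the tissue difference. 25 of 27 mitosis genes were called higher (0 with the muscle covariate) and none lower. The background of higher calls was 14.7% of all genes, and the list median was 2.77. *Cdk1*, the kinase that drives entry into mitosis, had 2039, 2185, 1649.6 and 1261 in the tumors and 272, 78.5, 351 and 33.6 in the glands (log2 difference 3.78 ± 0.68 (SE), adjusted p = 0.00178). Its cyclins *Ccnb1* (4.35 ± 0.96) and *Ccnb2* (3.52 ± 0.63) rose, and *Mki67*, the gene of the proliferation antigen Ki-67, had 10468, 12742, 8461 and 6389 in the tumors and 4152, 722, 4030.3 and 526 in the glands (2.54 ± 0.69). The tumors did not overlap the glands, and within the glands the muscle-rich libraries 2 and 4 were the lowest. *Top2a*, the topoisomerase gene of dividing cells, had 6708, 7430.3, 7698 and 5496 in the tumors and 2452, 413, 2411 and 240.2 in the glands (2.95 ± 0.73). Genes of DNA replication rose less, with 18 of 24 called (1 with the muscle covariate; 5 without glands 2 and 4 or against gland 3 alone; 10 without tumor 3; 11 without gland 2) and a median of 1.31. *Rrm2*, which encodes a subunit of ribonucleotide reductase, had 1436, 1554, 2825 and 1338 in the tumors and 481, 106, 381 and 67.1 in the glands (3.16 ± 0.62), and its partner *Rrm1* rose by 1.40 ± 0.15. *Cdk1*, *Ccnb1*, *Ccnb2*, *Top2a* and *Rrm2* did not keep their calls with the muscle covariate. The call of *Mki67* was lost with the muscle covariate or against gland 3 alone.

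The mitosis genes share a promoter feature that the list did not use. In RefSeq promoters of GRCm38.p6, 250 bases before to 50 bases after a gene's start, a CCAAT box (CCAAT) and a cell cycle homology region (CHR, TTTGAA or TTCGAA), each on either strand, both occurred in 15 of 22 mitosis genes with a promoter there. They occurred in 8.61% of all 27025 genes with one and in 3 of 22 DNA replication genes. *Cdk1* and *Ccnb2* are shown since they code for the kinase and a cyclin that act as 1 complex. Both lie on the minus strand, at chr10:69352863-69353162 and chr9:70421505-70421804, and are printed 5′ to 3′ along the gene with matches to either motif, on either strand, in capitals. A match is a description of the letters and not a shown binding site.
Cdk1: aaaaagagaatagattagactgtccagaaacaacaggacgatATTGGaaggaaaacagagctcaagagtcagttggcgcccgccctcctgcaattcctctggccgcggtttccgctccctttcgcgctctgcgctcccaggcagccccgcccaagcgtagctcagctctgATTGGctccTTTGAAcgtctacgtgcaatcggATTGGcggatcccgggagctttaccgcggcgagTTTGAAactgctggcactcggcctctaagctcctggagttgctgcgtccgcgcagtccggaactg
Ccnb2: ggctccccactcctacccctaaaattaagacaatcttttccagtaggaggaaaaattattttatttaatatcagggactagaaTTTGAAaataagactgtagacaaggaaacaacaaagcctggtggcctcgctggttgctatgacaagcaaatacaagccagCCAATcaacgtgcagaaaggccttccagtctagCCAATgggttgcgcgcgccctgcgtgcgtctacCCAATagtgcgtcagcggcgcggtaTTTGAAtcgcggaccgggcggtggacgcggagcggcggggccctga

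**Figure D3:**
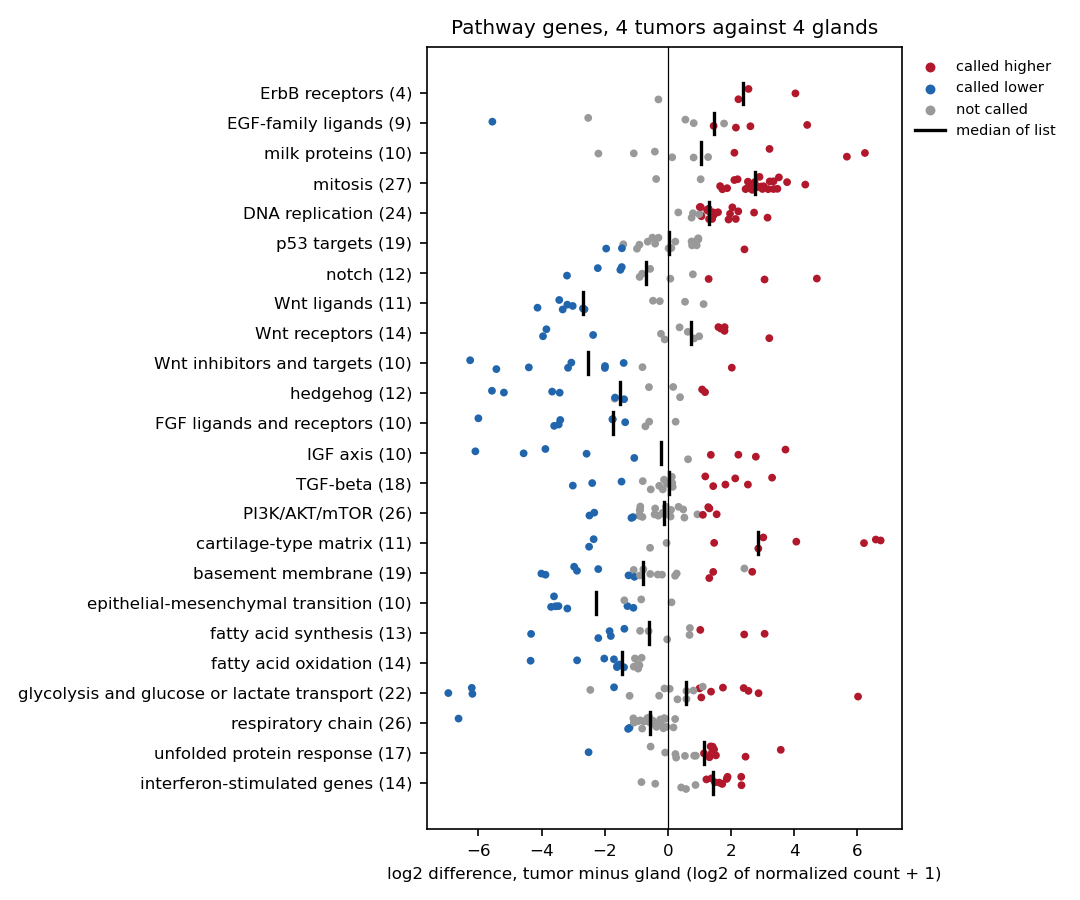
Differences in log2(normalized count + 1), tumors minus glands of NP mice, for the tested genes of 24 pathway lists (points, colored by call, black bars at list medians, list sizes in brackets). Mitosis genes lie above 0 with a median of 2.77, and the Wnt ligand list has a median of -2.69.

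Earlier cell cycle genes were mixed. Of 15 G1 cyclins, kinases and inhibitors, 4 rose (1 against gland 3 alone; 7 without tumor 1) and 3 fell (5 without glands 2 and 4). The D cyclins split, with *Ccnd1* at 9191, 14557, 20179 and 17562 in the tumors and 3077, 1399, 3087 and 997 in the glands (log2 difference 2.95 ± 0.41 (SE), adjusted p = 0.000466) and *Ccnd2* at 196, 219.6, 436 and 243 in the tumors and 5059, 4242, 4949 and 5560.3 in the glands (-4.24 ± 0.24). Both bind CDK4 and CDK6 in G1, and neither overlapped between the tissues. *Cdk4* rose (1.46 ± 0.22). *Cdkn2a*, which encodes the inhibitors p16 and p19ARF, had 156, 284, 170.2 and 349.6 in the tumors and 55.3, 5.71, 78.0 and 7.75 in the glands (3.33 ± 0.82), and *Cdkn1c*, which encodes the inhibitor p57, fell (-2.28 ± 0.34). The calls of *Cdk4* and *Cdkn2a* were lost with the muscle covariate or against gland 3 alone.

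Neither the p53 gene nor most of its targets passed the test. *Trp53* was at 567, 640.4, 688 and 896 in the tumors and 976, 581, 1135 and 483 in the glands (log2 difference -0.12 ± 0.29 (SE), adjusted p = 0.75), with overlap. Its counts do not separate the wild-type from the R172H allele, whose share of reads the study reports to differ between *NP* glands and tumors. Of 19 p53 target genes tested, 1 rose (2 with edgeR, with DESeq2 or without gland 4; 3 with TMM scaling, with tumors 1 and 2 averaged, without glands 2 and 4 or without tumor 1, tumor 2 or gland 3; 4 with the muscle covariate) and 2 fell (1 against gland 3 alone; 4 with DESeq2 or without gland 3), with a median of 0.02. *Perp*, which encodes a desmosome protein of epithelia as well as being a p53 target, was the one that rose (2.43 ± 0.27). *Cdkn1a*, the gene of the cell cycle inhibitor p21, was at 557, 808, 1196 and 1291 in the tumors and 236, 537, 571 and 761.9 in the glands, overlapping (adjusted p = 0.0772). Those that fell were *Phlda3* (-1.95 ± 0.53), an AKT inhibitor gene, and *Fas* (-1.45 ± 0.30), a death receptor gene. Of 17 BCL2 family and caspase genes 4 rose (1 with the muscle covariate or against gland 3 alone; 2 without glands 2 and 4) and none fell (1 with edgeR, with DESeq2, with all 5 groups in the fit, without glands 2 and 4, against gland 3 alone or without gland 2 or gland 4). *Fas* did not keep its call against gland 3 alone. The call of *Phlda3* was lost with the muscle covariate, without glands 2 and 4 or against gland 3 alone.

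Matrix genes of cartilage type rose while most other stromal lists fell. Of the list 7 of 11 rose (median 2.87) and 2 fell (0 with the muscle covariate; 1 with a filter at a mean of 50, with tumors 1 and 2 averaged, without glands 2 and 4, against gland 3 alone or without tumor 1, tumor 2, tumor 3, tumor 4, gland 3 or gland 4). *Col9a1*, a chain of the cartilage collagen IX, had 61620.2, 59551, 30883 and 37738 in the tumors and 666, 609, 1330.1 and 91.7 in the glands (log2 difference 6.59 ± 0.72 (SE), adjusted p = 0.000138). The other chains *Col9a2* (4.07 ± 0.51) and *Col9a3* (3.02 ± 0.43) rose with it, as did *Col2a1* (2.87 ± 0.32), the main cartilage collagen, and *Col11a1* (6.74 ± 0.67), which shares its fibrils. *Comp*, which encodes the cartilage oligomeric matrix protein, a member of the thrombospondin family, had 7264, 8545, 435 and 1940.3 in the tumors and 28.6, 38.5, 45.5 and 31.0 in the glands (6.21 ± 0.85). *Sox9*, the gene of the cartilage transcription factor that is also a mammary progenitor gene, had 1111, 1288, 1434 and 1285 in the tumors and 536, 621, 545 and 248 in the glands (1.47 ± 0.28). Tumors exceeded glands in every library for *Col9a1* and *Comp*. In the thrombospondin list *Thbs1*, which encodes a platelet and matrix glycoprotein, rose as well (2.71 ± 0.55), and *Thbs3* fell (-2.47 ± 0.24). *Thbs4*, a family member that the study followed, was at 258, 200.1, 543 and 584 in the tumors and 118, 343, 40.1 and 697 in the glands (adjusted p = 0.346). It was not called in the main test but was called higher in 3 of its 22 alternatives. The call of *Sox9* was lost with the muscle covariate. *Thbs1* did not keep its call with the muscle covariate or against gland 3 alone.

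Other matrix lists fell or split. Of 19 basement membrane genes 3 rose (1 with the muscle covariate) and 7 fell. Of 5 lysyl oxidase genes, which crosslink collagen, *Loxl3* rose (2.103 ± 0.19) and *Loxl1* (-1.74 ± 0.26) and *Loxl4* (-1.46 ± 0.39) fell. The laminin chains show the split, since *Lama3*, an epithelial chain, fell (-4.004 ± 0.22) and *Lama2*, a chain of muscle and nerve, fell too (-3.87 ± 0.17), whereas *Lama5* rose (1.31 ± 0.28). *Col4a5* rose (2.67 ± 0.30), and *Nid1*, which encodes the linker nidogen, fell (-2.97 ± 0.21). Of 14 matrix proteases and their inhibitors 4 rose (1 with the muscle covariate) and 7 fell. *Mmp9*, a gelatinase gene, had 31.4, 57.3, 79.2 and 56.2 in the tumors and 736, 196, 417 and 493 in the glands (log2 difference -2.94 ± 0.43 (SE), adjusted p = 0.000654), and *Mmp13*, a collagenase gene, had 86.3, 128, 229.9 and 619 in the tumors and 14.3, 9.99, 8.66 and 15.5 in the glands (3.97 ± 0.57). The other gelatinase gene, *Mmp2*, fell (-2.63 ± 0.17), and so did the inhibitor *Timp4* (-7.39 ± 0.56), while *Timp1* rose (1.85 ± 0.29). Genes of epithelial-mesenchymal transition fell in 7 of 10 cases and rose in none. The transcription factor genes *Snai2* (-3.70 ± 0.41), *Twist1* (-3.60 ± 0.46), *Twist2* (-3.56 ± 0.28), *Zeb1* (-3.46 ± 0.24) and *Zeb2* (-3.18 ± 0.18), all of which stromal cells also express, were lower. *Snai2* had 8.97, 14.6, 27.3 and 7.49 in the tumors and 225, 204, 142 and 159 in the glands. *Lama5* and *Timp1* did not keep their calls with the muscle covariate. The call of *Loxl4* was lost with the muscle covariate or against gland 3 alone.

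Ligands that signal between epithelium and stroma were mostly lower in tumors. Of the Wnt list 7 of 11 ligand genes fell (3 with a filter at a mean of 50; median -2.69) and none rose (1 with DESeq2 or without tumor 2). *Wnt10a* had 0, 1.22, 0 and 2.50 in the tumors and 23.8, 15.7, 114 and 14.2 in the glands, with 2 reads or fewer in each tumor (adjusted p = 0.00158). *Wnt4*, which acts downstream of progesterone in the gland, had 37.0, 30.5, 46.8 and 42.5 in the tumors and 435, 884, 324 and 274 in the glands (-3.44 ± 0.37). *Wnt2* (-3.01 ± 0.44) and *Wnt11* (-3.33 ± 0.27) fell as well. The receptors were mixed, with 5 of 14 higher and 3 lower. *Fzd9* (3.21 ± 0.78), *Fzd3* (1.80 ± 0.23) and *Fzd6* (1.67 ± 0.16) rose, and *Fzd4* (-3.85 ± 0.25) and the receptor of R-spondins *Lgr5* (-3.95 ± 0.39) fell. Secreted inhibitors and targets fell in 8 of 10 cases. The inhibitor gene *Wif1* had 0, 6.10, 9.09 and 0 in the tumors and 159, 167, 198 and 45.2 in the glands (-5.43 ± 0.88), and *Axin2*, a target in most tissues, fell (-4.40 ± 0.26). The inhibitor gene *Sfrp1* was the member that rose (2.03 ± 0.33).

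Called FGF genes all fell, while hedgehog and Notch genes were called in both directions. Of 12 hedgehog genes 6 fell (3 with the muscle covariate or against gland 3 alone) and 2 rose (0 with the muscle covariate, without glands 2 and 4, against gland 3 alone or without tumor 3, tumor 4 or gland 4). *Gli2*, a transcription factor gene of the pathway, fell (-3.66 ± 0.31), and so did the ligand-binding inhibitor *Hhip*, with 1 read in tumor 3, 0 in the other tumors and 40.1 to 98.5 in the glands (adjusted p = 3.08e-05). 7 of 10 FGF ligands and receptors fell (4 with the muscle covariate or against gland 3 alone) and none rose. *Fgf10*, a stromal ligand of mammary buds, had 4.48, 4.88, 11.7 and 8.74 in the tumors and 347, 589.5, 585 and 554 in the glands (log2 difference -6.00 ± 0.35 (SE), adjusted p = 9.54e-06). Its epithelial receptor *Fgfr2* fell (-3.60 ± 0.31). In the Notch list 3 of 12 rose and 4 fell. The ligand genes *Jag1* (-2.22 ± 0.23) and *Jag2* (-3.19 ± 0.17) fell, whereas the ligand gene *Dll1* (3.06 ± 0.43) and the target genes *Hey1* (4.72 ± 0.17) and *Hes1* (1.29 ± 0.18) rose. *Jag1* was at 399, 390.4, 516 and 529 in the tumors and 2212, 2452, 1364 and 2714 in the glands. *Hey1* was at 8988, 10697, 9180.4 and 6566 in the tumors and 361, 374, 279 and 316 in the glands, and neither gene overlapped between the tissues.

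IGF, TGF-beta and PI3K genes also split. *Igf1*, the gene of the growth factor that liver and stroma secrete, had 169, 168, 147 and 219.7 in the tumors and 2291, 2312, 2806 and 2947 in the glands (log2 difference -3.88 ± 0.17 (SE), adjusted p = 3.96e-06), and *Igf2*, which is imprinted and expressed in growing tissue, had 0, 3.66, 5.20 and 9.99 in the tumors and 349, 288, 175 and 386 in the glands (-6.09 ± 0.69). Binding protein genes went both ways, since *Igfbp6* (-4.57 ± 0.37) and *Igfbp4* (-2.57 ± 0.28) fell and *Igfbp5* (2.23 ± 0.32) rose. Of the 10 genes of this list 4 rose and 5 fell. Of 18 TGF-beta genes 6 rose and 3 fell. *Tgfb3*, a ligand gene, had 9643, 12240.3, 15692 and 15443 in the tumors and 1867, 2965, 2423 and 1888 in the glands (2.53 ± 0.21), and *Tgfb2* rose as well (1.82 ± 0.21). *Ltbp2*, which encodes a matrix protein of the family that binds the latent ligand, rose too (3.30 ± 0.29). Of 26 PI3K, AKT and mTOR genes 4 rose (2 with the muscle covariate or against gland 3 alone) and 4 fell (2 with the muscle covariate, without glands 2 and 4, against gland 3 alone or without gland 4), near the background share for rises and below that for falls. *Akt1* had 6947, 7109.5, 10957 and 8583 in the tumors and 3837, 2875, 3963 and 2767 in the glands (1.32 ± 0.19). *Inpp4b*, a lipid phosphatase gene that opposes the pathway, had 285, 355, 221 and 217 in the tumors and 2204, 934, 1973 and 1180.2 in the glands (-2.48 ± 0.30).

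Metabolic genes were called in both directions. Fatty acid synthesis had 3 of 13 genes higher (1 with the muscle covariate or against gland 3 alone) and 5 lower. *Fasn*, the fatty acid synthase gene, had 29762, 20353, 12954 and 14089 in the tumors and 27830.3, 98285, 160798 and 112724 in the glands (log2 difference -2.20 ± 0.53 (SE), adjusted p = 0.00768), where tumor 1 stood just above gland 1. *Acaca*, the gene of the enzyme before it, fell (-1.81 ± 0.32), and so did the desaturase gene *Fads1* (-1.38 ± 0.22). *Srebf1*, the gene of a transcription factor that switches on this synthesis, rose, with 67026, 60689, 34302 and 55522 in the tumors and 5968, 6039, 6851 and 6398 in the glands (3.06 ± 0.22). Cholesterol genes were called higher in 4 of 20 cases (2 with tumors 1 and 2 averaged, with the muscle covariate, against gland 3 alone or without tumor 2 or gland 1) and lower in 1 (0 with the muscle covariate, without glands 2 and 4, against gland 3 alone or without tumor 3 or tumor 4; 2 with edgeR, with DESeq2 or without gland 1). *Sqle*, which encodes squalene epoxidase, had 1682, 1651, 1977 and 1519 in the tumors and 605, 415, 617 and 324 in the glands (1.84 ± 0.22), and *Dhcr7*, the gene of the last step, rose (1.49 ± 0.18). Fatty acid oxidation fell in 8 of 14 genes (2 with the muscle covariate; 4 without glands 2 and 4 or against gland 3 alone; 13 with DESeq2). *Cpt1b*, the carnitine transferase gene of muscle and brown fat, had 4.48, 0, 1.299 and 0 in the tumors and 18.1, 38.5, 27.1 and 101 in the glands (-4.35 ± 0.70).

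Glucose genes moved by isoform. 8 of 22 glycolysis and transport genes rose (5 with tumors 1 and 2 averaged or without tumor 1, tumor 2 or gland 1; 13 without glands 2 and 4; 15 against gland 3 alone) and 4 fell (1 with the muscle covariate or against gland 3 alone; 2 without glands 2 and 4). *Slc2a1*, the glucose transporter gene of most growing cells, had 4708, 3521, 1999 and 2345 in the tumors and 679, 471, 787 and 393 in the glands (log2 difference 2.40 ± 0.32 (SE), adjusted p = 0.000355), whereas *Slc2a4*, the insulin-responsive transporter gene of fat and muscle, had 66.1, 89.1, 72.7 and 62.4 in the tumors and 2769, 11089, 2594 and 10614 in the glands (-6.21 ± 0.50). *Hk1* (2.87 ± 0.24), *Pfkl* (2.55 ± 0.30), *Aldoc* (6.02 ± 0.37) and *Eno1* (1.75 ± 0.24), which encode a hexokinase, a phosphofructokinase, an aldolase and an enolase, rose. Glycogen and gluconeogenesis genes fell in 6 of 12 cases (2 with the muscle covariate or against gland 3 alone; 3 without glands 2 and 4). *Gys2*, the glycogen synthase gene of liver and fat, was at 0 in every tumor and at 523, 939, 417 and 1215 in glands, at least 198.5-fold lower in tumors when a floor of 3 reads per library stands for 0. *Pck1*, the gene of the cytosolic enzyme that starts gluconeogenesis and glycerol synthesis in fat, had 65.0, 152, 129 and 82.4 in the tumors and 35235, 16078, 48849 and 82282 in the glands (-8.57 ± 0.48), while the mitochondrial *Pck2* rose (1.80 ± 0.19).

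Genes of the mitochondrial genome, which encode respiratory chain subunits and ribosomal RNAs, mostly fell. The ribosomal RNA *mt-Rnr2* had a gland mean of 1403494, against 358506 for *mt-Co1*, so the read shares below are in large part ribosomal RNA. Of 12 mitochondrial genome genes tested 10 fell and none rose, with a median of -2.29. This set was not counted under the alternatives. Gland 3 lay close to the tumors for *mt-Co1*, at 93178 against 75461 to 87317 in the tumors. This genome took 1.43, 1.49, 0.821 and 1.43% of tumor reads and 4.99, 5.55, 2.55 and 14.6% of gland reads, with the highest share in the gland of most *Ucp1*. The nuclear genes of the respiratory chain had 3 of 26 lower (0 with the muscle covariate, without glands 2 and 4 or against gland 3 alone; 1 with tumors 1 and 2 averaged or without tumor 1, tumor 2, tumor 3, tumor 4, gland 2 or gland 4; 5 with all 5 groups in the fit or without gland 1; 6 with edgeR; 7 with DESeq2 or without gland 3), and those of the citrate cycle 4 of 16 (0 with the muscle covariate or against gland 3 alone; 1 without glands 2 and 4; 7 with edgeR; 9 with DESeq2 or without gland 3).

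Amino acid genes rose in part. 4 of 10 transporters were called higher (2 with the muscle covariate or against gland 3 alone) and 2 lower (1 with the muscle covariate or against gland 3 alone). *Slc6a14*, the gene of a broad amino acid transporter, had 1483, 1441, 703 and 1122 in the tumors and 5.72, 12.8, 46.6 and 0 in the glands (log2 difference 7.13 ± 1.006 (SE), adjusted p = 0.000513). The glutamine transporter gene *Slc1a5* fell (-4.97 ± 0.18), with 337 to 473 in the tumors and 9617 to 14425 in the glands, and the related *Slc1a4* rose (1.34 ± 0.19). Of 10 serine, glycine and proline synthesis genes 3 rose and none fell (1 with tumors 1 and 2 averaged or without tumor 1), with *Pycr1*, which makes proline, at 904, 1038, 627 and 434 in the tumors and 63.9, 61.4, 119 and 49.1 in the glands (3.34 ± 0.36).

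Genes of the unfolded protein response, which adjusts the endoplasmic reticulum to its protein load, were mostly higher. Of 17 genes 9 rose and 1, the glutathione-degrading *Chac1*, fell (0 with the muscle covariate or against gland 3 alone) (median 1.14). *Hspa5*, the gene of the chaperone BiP of the endoplasmic reticulum, had 50286, 44105, 28250.3 and 46163 in the tumors and 13544, 15410.1, 13861 and 14699 in the glands (log2 difference 1.52 ± 0.20 (SE), adjusted p = 0.000389). *Xbp1*, a transcription factor gene of the response and of secretory cells, had 44938, 34947, 29961 and 40938 in the tumors and 7967, 7788, 6759.8 and 5002 in the glands (2.46 ± 0.20). *Calr* (1.42 ± 0.14) and *Pdia6* (1.35 ± 0.14), which encode the chaperone calreticulin and a disulfide isomerase, rose too. *Trib3*, a pseudokinase gene switched on in the later response, had 1290.5, 1510.2, 1083 and 1549 in the tumors and 103, 133, 66.1 and 173 in the glands (3.58 ± 0.29). The endoplasmic reticulum stress element (ERSE, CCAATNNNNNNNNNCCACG on either strand, which contains a CCAAT box) was in the promoters of 5 of 15 genes of the list with one in RefSeq, against 0.137% of all genes with one. *Hspa5* (chr2:34771840-34772139, plus strand) and *Calr* (chr8:84846882-84847181, minus strand) are shown as the chaperones of the list, with ERSE matches in capitals.
Hspa5: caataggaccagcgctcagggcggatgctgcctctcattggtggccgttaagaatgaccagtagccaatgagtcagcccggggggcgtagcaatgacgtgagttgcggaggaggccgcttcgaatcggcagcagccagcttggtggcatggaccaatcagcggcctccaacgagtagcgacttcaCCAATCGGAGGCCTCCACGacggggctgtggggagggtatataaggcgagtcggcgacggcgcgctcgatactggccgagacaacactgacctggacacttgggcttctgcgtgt
Calr: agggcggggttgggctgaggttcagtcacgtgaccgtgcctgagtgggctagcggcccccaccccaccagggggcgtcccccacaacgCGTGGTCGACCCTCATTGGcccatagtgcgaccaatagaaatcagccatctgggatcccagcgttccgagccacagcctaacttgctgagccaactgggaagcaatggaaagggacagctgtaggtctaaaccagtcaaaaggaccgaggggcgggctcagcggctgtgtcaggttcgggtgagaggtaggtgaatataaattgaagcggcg

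Interferon-stimulated genes, the antiviral program that interferon switches on, rose against the 4 glands, and 6 were called higher without the muscle-rich glands 2 and 4. None was called with the muscle score as covariate, which takes up part of the tissue difference. Of the list 9 of 14 were called higher (0 with the muscle covariate; 3 with all 5 groups in the fit), with a median of 1.43. None was called lower (1 without glands 2 and 4 or without gland 2). *Oas1a*, a sensor gene of double-stranded RNA, had 971, 845, 878 and 672 in the tumors and 406, 144, 120.2 and 105 in the glands (log2 difference 2.33 ± 0.40 (SE), adjusted p = 0.0014). *Ifit1*, which encodes a binder of viral RNA ends, had 805, 834, 568 and 747 in the tumors and 449, 138, 66.1 and 107 in the glands (2.32 ± 0.51). The interferon-stimulated response element (ISRE, GAAANNGAAA on either strand) was in 6 of 9 promoters of the list and in 3.99% of all genes with a promoter in RefSeq. *Oas1a* (chr5:120907476-120907775, minus strand) and *Ifit1* (chr19:34640639-34640938, plus strand), the genes of the list with the largest rises, are shown with ISRE matches in capitals. The calls of *Oas1a* and *Ifit1* were lost with the muscle covariate.
Oas1a: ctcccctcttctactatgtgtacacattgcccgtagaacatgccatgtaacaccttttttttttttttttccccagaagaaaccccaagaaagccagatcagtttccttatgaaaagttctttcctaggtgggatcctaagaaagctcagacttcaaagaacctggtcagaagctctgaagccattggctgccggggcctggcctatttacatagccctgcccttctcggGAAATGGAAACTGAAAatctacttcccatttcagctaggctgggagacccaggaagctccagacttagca
Ifit1: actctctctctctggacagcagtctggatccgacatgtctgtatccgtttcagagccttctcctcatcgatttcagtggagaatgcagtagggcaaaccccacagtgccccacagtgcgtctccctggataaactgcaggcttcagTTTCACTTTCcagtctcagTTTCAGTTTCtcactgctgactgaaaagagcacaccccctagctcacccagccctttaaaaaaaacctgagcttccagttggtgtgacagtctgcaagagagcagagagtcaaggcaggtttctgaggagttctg

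Inflammatory genes did not rise as a list. Of 15 NF-kB and cytokine genes 1, the chemokine gene *Cxcl1*, rose (0 against gland 3 alone) and 5 fell (2 without gland 1; 3 with tumors 1 and 2 averaged or without tumor 1, tumor 2, tumor 3 or gland 3; 8 without glands 2 and 4). *Icam1*, an adhesion molecule gene, fell, with 109 to 169 in the tumors and 488 to 1649.6 in the glands (log2 difference -2.79 ± 0.38 (SE), adjusted p = 0.000432), and so did *Tnfaip2* (-1.69 ± 0.24), a gene that tumor necrosis factor induces. The serum amyloid A genes, acute phase genes that the study followed, gave no call (lower, 1 with edgeR or against gland 3 alone; 3 with the muscle covariate). *Saa1* was at 238, 73.2, 15.6 and 11.2 in the tumors and 55.3, 21.4, 201.5 and 9.04 in the glands, a wide spread within each tissue that overlapped (adjusted p = 0.935). Its difference turned with the setting, and with the muscle covariate it was called lower by 4.24 on the log2 scale. Reads of *Saa1* and its near-identical neighbor *Saa2* may be split between them. Immediate-early genes rose in 6 of 16 cases (2 with the muscle covariate; 3 against gland 3 alone) and fell in 2, with *Ier3* (4.81 ± 0.26) and *Ier2* (1.96 ± 0.27) higher and *Klf4* lower (-3.08 ± 0.24).

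Outside the lists, the genes of the largest change add secreted and liver-type products. *Scgb2b27*, a secretoglobin gene of a family of close copies, rose, with 1925 to 7546 in the tumors and 0 to 52.0 in the glands (8.49 ± 1.17), an uncertain assignment among its copies. *Npy*, the neuropeptide Y gene, had 49.3, 218, 196 and 1382 in the tumors and 0.954, 4.28, 1.08 and 1.29 in the glands, where the gland values stand for 1 to 3 reads. *Cyp2e1*, a cytochrome gene of liver and fat, had 35.9, 67.1, 48.1 and 6.24 in the tumors and 10074, 15055, 6932 and 46917 in the glands (-8.92 ± 0.78). *Car3*, the carbonic anhydrase gene of fat and muscle, had 317, 845, 838 and 402 in the tumors and 85181, 217201, 151050.3 and 280185 in the glands (-8.25 ± 0.44). *Inmt*, a methyltransferase gene, had 2.24, 3.66, 2.60 and 1.25 in the tumors and 1394, 962, 728 and 1494 in the glands, the tumor values at 3 reads or fewer. Imprinted growth genes fell in 10 of 14 cases (6 against gland 3 alone) and rose in 1 (0 with a filter at a mean of 50), *Phlda2*, which encodes a growth-limiting protein of placenta (4.42 ± 0.36). *Nnat*, an imprinted gene of fat and brain, had 25.8, 63.4, 37.7 and 22.5 in the tumors and 2979.6, 6403, 11001 and 2543 in the glands (log2 difference -7.09 ± 0.51 (SE), adjusted p = 2.1e-05), and *Peg10* (-3.82 ± 0.46) and *Ndn* (-3.94 ± 0.32) fell as well. The study named secreted proteins that differed between *NP* and *N* glands. Of the 14 of them in the list here, 6 fell and none rose (1 with the muscle covariate or against gland 3 alone; 2 without glands 2 and 4). The study's comparison was another one and shares the *NP* glands, so these counts are not independent evidence of the directions it gave. Small nucleolar RNAs, which guide RNA modification, were called higher in 57 of 137 tested and lower in 7, with a median of 0.75. Their counts were not repeated under the alternatives. The clock list had 2 of 16 higher (1 with the muscle covariate) and 2 lower (0 with the muscle covariate, against gland 3 alone or without tumor 3; 1 with TMM scaling, with edgeR, with DESeq2, without glands 2 and 4 or without tumor 4, gland 2 or gland 4), with *Bhlhe40*, a repressor gene of the clock, at 6567 to 8996 in the tumors and 1004 to 3440.0 in the glands (2.08 ± 0.33).

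The tumors were not copies of each other. Tumors 1 and 2, whose library names share a number that may be that of an animal, had the highest correlation (0.978). Yet 402 genes differed at least 4-fold between them, and averaging them left 2526 genes higher and 4453 lower. The gene with the widest range among tumors of those called was *Gabra4*, which encodes a subunit of a GABA receptor of neurons, at 1222, 26.8, 6.49 and 115 in the tumors and 15.3, 1.43, 0 and 5.17 in the glands (4.22 ± 1.51). Differences also ran along chromosomes. Against the mean of the 4 glands, the median gene of chromosome 19 stood at 0.12, -0.10, -0.66 and -0.27 in tumors 1 to 4 on the log2 scale. Chromosome 12 stood at 0.20, 0.22, 0.48 and 0.42, and chromosome 4 at -0.21, -0.12, 0.17 and 0.08. Tumor 3 was thus the lowest for chromosome 19, and tumors 3 and 4 the highest for chromosome 12. The DNA of these tumors was not measured here. In TN tumors 1 to 4 chromosome 4 stood at 0.17, -0.63, -0.42 and -0.65 against MGN glands. Other chromosomes moved in single TN tumors, such as chromosome 7 at 0.60 in TN tumor 1 and chromosome 9 at -0.57 in TN tumor 2. *Gabra4* did not keep its call with a pseudocount of 5, with the muscle covariate, without glands 2 and 4, against gland 3 alone or without tumor 1, tumor 2, tumor 4, gland 2, gland 3 or gland 4.

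**Figure D4:**
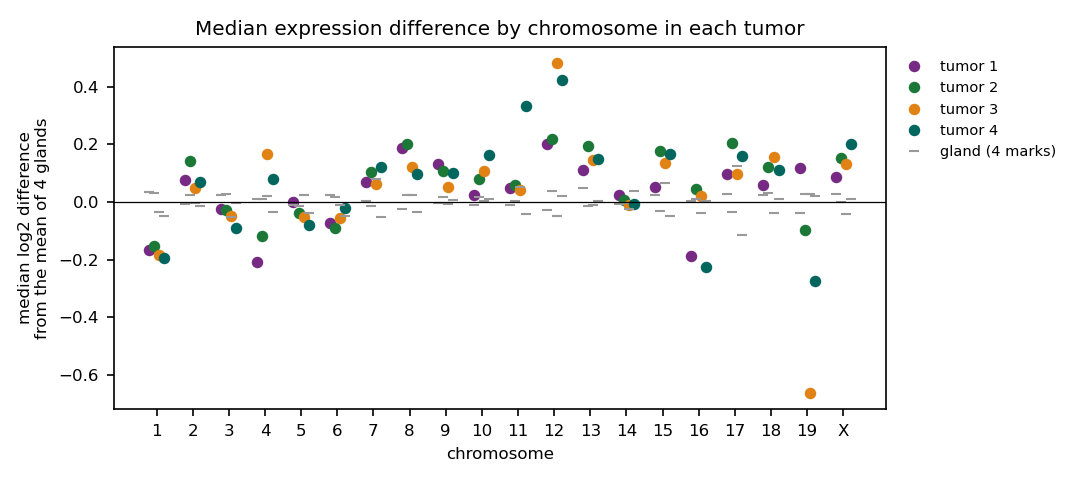
Median log2 difference of genes on chromosomes 1 to 19 and X from the mean of the 4 NP glands, for each NP tumor (colored points) and each gland (gray dashes). Tumor 3 stands at -0.66 on chromosome 19 and tumors 3 and 4 at 0.48 and 0.42 on chromosome 12.

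The question of whether tumors departed from glands in another way in *NP* than in *N* mice was tested with the interaction of tissue and genotype over 16 samples. The 4 *N* tumors carried Fsp-Cre without the conditional allele, while 3 of the 4 *N* glands carried the allele without Cre. Tissue and genotype thus partly coincide in *N* mice, and the interaction cannot separate them. The differences of *NP* and *N* mice had the same sign in 87.0% of 17406 genes tested in both (Pearson r 0.899, Spearman rho 0.897 across genes, which are not independent). Of the calls of *NP* mice 68.0% of the higher and 72.7% of the lower were also called in *N* mice, where 12.8% and 22.3% of genes were called. Those shared calls were 77.9% and 78.0% of the calls of *N* mice. Of the 841 genes called higher in *NP* alone, 757 were tested in *N* and 708 of these had the same sign. Of the 1173 called lower in *NP* alone, 985 were tested and 932 had the same sign. List medians can be set side by side, without a test. The mitosis median was 2.77 in *NP* and 2.84 in *N*, that of white adipocytes -7.27 and -8.42, and that of cartilage-type matrix 2.87 and 2.41. That of skeletal muscle was -7.61 and -1.58, where the muscle list took 0.135 to 19.9% of reads of *NP* glands and 0.0218 to 0.199% of *N* glands.

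**Figure D5:**
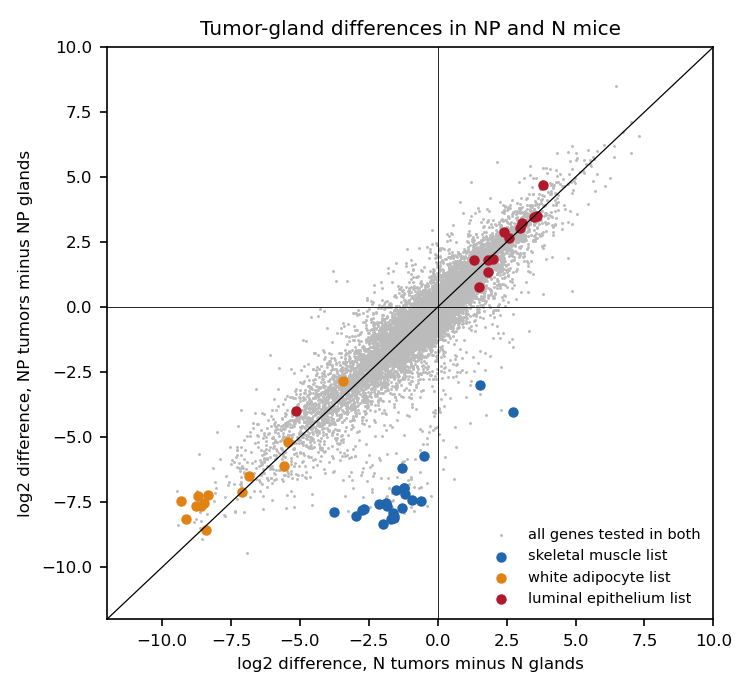
Tumor minus gland log2 differences of each gene in NP mice (vertical) and N mice (horizontal), with the line of equal values and the muscle, white adipocyte and luminal lists in color. Most genes lie along the line (r 0.899), and the muscle genes lie below it.

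The interaction gave no call in either direction among 19367 genes (limma, smallest Benjamini-Hochberg adjusted p 0.273, 0% called). At an unadjusted p under 0.05 there were 1536 genes, or 7.93%, and edgeR also called none, with 1805 genes at that level. Here higher means a larger *NP* than *N* difference. DESeq2 called 50 genes higher and 277 lower, of which 24 were the muscle list. Without gland 3, 194 genes were called, 11 of them higher, and without gland 4, 2 genes, both higher. Without TN tumor 1, 14 were higher and 6 lower, and without glands 2 and 4, 4 were higher and none lower. The genes of smallest p are given as values with no call. *Trim5*, a gene of the TRIM family of antiviral proteins, was at 1.12, 2.44, 0 and 2.50 in the tumors and 196, 55.7, 248 and 76.2 in the glands of *NP* mice. In *N* mice it was at 44.3, 56.9, 31.3 and 37.3 in tumors and 10.2, 109, 5.63 and 199.8 in glands, an interaction of -6.00 ± 1.28 (SE, adjusted p = 0.346). With 2 reads or fewer in each *NP* tumor this value depends on the pseudocount. *Tenm3*, which encodes a cell adhesion protein of neurons, gave -3.65 ± 0.71 (adjusted p = 0.274), and *Ache*, the acetylcholinesterase gene of synapses and muscle, -3.15 ± 0.68 (adjusted p = 0.346). For *Erbb2* the interaction was -0.32, with a 95% interval of -2.07 to 1.42, and for *Mki67* -0.09 (-1.87 to 1.69). These intervals leave room for differences of several-fold between the genotypes in either gene.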

How the data were processed

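RNA-seq of 4 NP tumors and 4 NP glands was analysed, with 4 N tumors and 4 N glands for the interaction. By the study's methods and the submitters' processing notes, reads were 75-bp pairs aligned to GRCm38 with TopHat2 2.1.1 and Bowtie2, while the counter, annotation and use of strand are not given in the sources used here. The labels name total RNA and a total RNA library kit, and the methods an mRNA kit, which bears on genes without poly(A) such as small nucleolar RNAs. The deposited signal values are read counts per gene that the authors divided by 1 DESeq2 size factor per library, without pooling. Whole reads were recovered from them in 100% of values (tolerance 0.05), and their sums gave the depth. Names and positions came from GENCODE vM21, which matched 98.16% of 46078 genes and left 849 unmatched.

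The main test was limma 3.58.1 (R 4.3.3) on log2(normalized count + 1) with a mean-variance trend, for genes with at least 10 normalized counts in at least 4 samples. edgeR 4.0.16 (quasi-likelihood) and DESeq2 1.42.0 on recovered reads, TMM scaling, other pseudocounts and filters, all 5 groups in 1 fit, a replicate block, a muscle score covariate, averaged tumors 1 and 2 and left-out libraries were alternatives. The study calls replicates biological, but the library names of tumors 1 and 2 share a number that may be that of an animal. The p-values may therefore in part measure spread within 1 animal. The script was checked on simulated data.

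Lists, members and tests were chosen with earlier results of these data known. The text takes its genes from *Erbb2*, *Trp53*, *Saa1*, *Saa2* and *Thbs4*, the 8 largest changes each way with a mean of at least 100, up to 3 leading called members of each list with 1 of the other direction and the first member, the widest ranges, and the smallest interaction p. Chosen after their values were seen were *Acaca*, *Acta2*, *Calr*, *Cdkn1c*, *Ckm*, *Col2a1*, *Col9a2*, *Col9a3*, *Dll1*, *Egfr*, *Ehf*, *Elf5*, *Eno1*, *Fads1*, *Fzd4*, *Fzd6*, *Hbegf*, *Hes1*, *Igfbp4*, *Igfbp5*, *Krt18*, *Krt8*, *Lama5*, *Lep*, *Myh11*, *Ndn*, *Pck2*, *Pdgfra*, *Pdia6*, *Peg10*, *Rrm1*, *S100a4*, *Slc1a4*, *Slc2a4*, *Sox9*, *Tgfb2*, *Timp1*, *Top2a*, *Ucp1*, *Zeb1* and *Zeb2*. A few genes that these rules name are not reported here.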

Additional observations from a re-analysis of the deposited data

Results flagged for a closer look

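In 18 of 374 groups of 4 samples, 1 sample of a gene named above stood apart from the other 3 on the log2 scale (Dixon's test), and chance flags about 1 in 20 groups. No sample was left out for it.

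Among the tumors, tumor 1 was highest for *Ache* at 34.8 and lowest for *Ucp1* at 1.12. Tumor 3 was highest for *Nid1* at 2109, for *Pecam1* at 1438 and for *Hhip* at 1.299, which is 1 read. Tumor 3 was lowest for *Pdia6* at 10682, for *Slc1a4* at 768 and for *Fas* at 63.6. Tumor 4 was lowest for *Cnn1* at 18.7.

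Among the glands, gland 4 was lowest for *Epcam* at 1458, *Sox9* at 248, *Col4a5* at 817 and *Wif1* at 45.2, and highest for *Cd163* at 3530.4. Gland 1 was lowest for *Fgf10* at 347 and *Slc1a5* at 9617. Gland 2 was highest for *Npy* at 4.28 and gland 3 for *Col1a1* at 18480.3. Gland 4 was also the library with the fewest luminal reads (0.0295%) and the most *Ucp1*.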

How the results depend on the processing

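The count of 2625 genes higher in tumors became 1668 with the muscle covariate and 4689 with no fold threshold, and ran from 2401 to 2813 when 1 library was left out. The count of 4300 lower became 2707 with the muscle covariate and 2739 against gland 3 alone, and ran from 4069 to 4547. The interaction, with 0 calls each way, gave 50 higher and 277 lower with DESeq2 and 4 higher without glands 2 and 4, and leaving out 1 library gave 0 to 14 higher and 0 to 1.8e+02 lower. The first principal component held 83.7% of the variance of the 500 most variable genes, 73.6% of that of all genes past the filter, and 81.8 to 89.8% with 1 library left out. The other alternatives kept these values within 1.5 times.

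Replicate numbers are not stated to pair animals, and library names of these tumors and glands share no number, so numbers were not read as pairs. Deviations of same-numbered tumors and glands had correlations of -0.106, -0.148, -0.045 and 0.070. These cannot show or exclude pairs, since the glands differ widely in muscle reads. With a replicate block, 2574 genes were higher and 4123 lower.

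Of 177 genes named and called, 145 kept their call and none reversed under the alternatives run. *Thbs4* and *Cdkn1a*, without a call in the main test, were each called higher in 3 of 22 alternatives. Signs turned for other genes without a call. *Col1a1* stood at -0.48 with the muscle covariate, -0.054 without glands 2 and 4 and -0.97 against gland 3 alone. *Egfr* stood at 0.27 with the muscle covariate. *Saa1* stood at -4.24 with the muscle covariate, -1.29 without glands 2 and 4, -2.22 against gland 3 alone and -0.34 with tumors 1 and 2 averaged, and *Saa2* at -4.09, -0.73 and -2.05 in the first of these. With 1 library left out *Saa1* ran from -0.70 to 0.90, *Adgre1* from -0.34 to 0.031 and *Trp53* from -0.33 to 0.084. The cause of these shifts was not tested.

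With 4 samples a group, muscle-rich and lymphocyte-rich glands widen the gland spread, and a gene that misses the threshold is not shown to be equal in both tissues. Depth was even, so low genes such as *Wnt10a* rest on a few reads. Size factors set the scale. TMM moved the median difference from -0.071 to -0.0048, with a median change per gene of 0.053. Bulk values cannot separate cell number from RNA per cell.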
